A study of Homo sapiens with 8 samples.

Results

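RNA polymerase III is the nuclear enzyme that makes short noncoding RNAs, among them transfer RNAs, 5S ribosomal RNA, U6 small nuclear RNA, 7SK and the 7SL RNA of the signal recognition particle. Its core is formed by POLR3A and POLR3B, which hold the catalytic centre. POLR3C, POLR3F and one more protein form a trimer needed to start transcription, and that last place is taken either by POLR3G or by its paralog POLR3GL. POLR3D and POLR3E form a dimer, and POLR3K acts in RNA cleavage and termination. POLR3G is known as the form of stem, embryonic and transformed cells and as a target of MYC, while POLR3GL is found widely in differentiated tissue.

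The 9 genes described here, POLR3A, POLR3B, POLR3C, POLR3D, POLR3E, POLR3F, POLR3G, POLR3GL and POLR3K, were taken by symbol from a table of 25168 genes. POLR3G was picked because it fell when TAK-981 was added to venetoclax, and POLR3GL for contrast, so the comparison of the combination with venetoclax is a description with no test for any of the 9. For these paralogs a test is given only for TAK-981 against vehicle, whose groups share no library with it. The spread in that test was fitted over all 4 groups. All 9 passed the filter on low counts, which left 12843 genes (every percentage of genes called below is of these), and their counts ran from 151 to 2492 per library. Gene expression had been measured by RNA sequencing in KG1a, a long-established cell line from a human acute myeloid leukemia, with the surface markers of early blood progenitors. Cells received DMSO vehicle, 5 µM TAK-981 (an inhibitor of the enzyme that activates the small protein modifier SUMO), 1 µM venetoclax (an inhibitor of the anti-apoptotic protein BCL2) or a combination of both at these doses, each for 48 h. There were 4 groups of 2 libraries, and whether replicates were grown as separate cultures is not stated in the labels, so p-values measure only the spread between libraries, which may be technical. KG1a is 1 cell line, and each drug was given at 1 dose and 1 time.

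Libraries held 13204588 to 26304900 counts. The venetoclax replicates stood further apart than the others: over 9449 genes of at least 5 CPM (counts scaled to a common library total), their median difference was 0.261 log2 units, against 0.0872 to 0.1 in the other groups. One spread was fitted over all 4 groups, which is smaller than that of the venetoclax replicates and larger than that of the other pairs. Markers of the line (CD34, PTPRC, SPN, CD7 and LMO2) summed to 2580 to 3150 CPM per library. The epithelial, stromal, erythroid, B cell and monocyte lists each summed to at most 1.53 CPM, while the T cell genes CD3D and CD3E summed to 37.2 to 50 CPM with vehicle and to 23.5 to 27.4 CPM with the combination; the part of this in the results below was not tested. RNA was measured in bulk, where fewer cells of a type and less RNA per cell cannot be told apart.

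Promoter sequences from RefSeq (GRCh38.p14, 250 bases before to 50 bases after a start) were matched by symbol for 7 of the 9 genes, in 9 windows; POLR3D and POLR3G had no entry. They are shown for POLR3E, the subunit gene other than the paralogs that fell with TAK-981 alone, and for POLR3GL. The POLR3E window (chr16:22297159-22297458, plus strand) begins inside TRL-AAG2-4, a leucine transfer RNA gene, itself of the class that RNA polymerase III transcribes. That gene (chr16:22297140-22297221) ends 187 bases before the RefSeq start of POLR3E, and 63 of its bases are the first run of capitals. The second run of capitals is the E-box CACGTG, the motif that MYC and related factors bind. In the POLR3GL window (chr1:145964440-145964739, plus strand) capitals mark the 2 CCAAT boxes, of which the first lies on the minus strand. The range of the gene ANKRD34A (chr1:145959441-145964575) overlaps this window by 136 bases.
POLR3E promoter: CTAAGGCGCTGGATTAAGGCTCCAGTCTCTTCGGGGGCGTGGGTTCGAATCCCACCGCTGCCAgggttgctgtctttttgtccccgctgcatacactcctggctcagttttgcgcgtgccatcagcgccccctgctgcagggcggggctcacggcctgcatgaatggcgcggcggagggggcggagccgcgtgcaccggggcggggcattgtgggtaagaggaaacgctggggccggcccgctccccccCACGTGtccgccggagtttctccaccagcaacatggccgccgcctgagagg
POLR3GL promoter: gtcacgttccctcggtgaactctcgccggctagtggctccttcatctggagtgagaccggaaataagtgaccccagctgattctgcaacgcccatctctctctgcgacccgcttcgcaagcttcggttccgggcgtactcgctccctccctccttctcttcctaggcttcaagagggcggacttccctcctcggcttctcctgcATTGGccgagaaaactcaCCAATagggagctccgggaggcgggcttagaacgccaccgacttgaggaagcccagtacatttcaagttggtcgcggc

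Each window was searched on both strands for 5 motifs, none of which contains another: the E-box, the NRF1 core TGCGCA, the ETS motif CCGGAAG, the CCAAT box and the TATA box TATAAA. The E-box was found in 3 of the 9 windows, those of POLR3A, POLR3C and POLR3E, and in 7.26% of the 35116 windows of the whole table. Its letters CACGTG begin 35 bases before the POLR3A start, 196 bases before the POLR3C start and 1 base before the POLR3E start. POLR3C had 2 windows, and its other window held no E-box. The POLR3C E-box lies within the range of the gene RNF115 (chr1:145738868-145824095), which overlaps that window by 146 bases. The CCAAT box was found in 4 of 9 windows and in 34.6% of all, the ETS motif in 2 and 10.3%, the NRF1 core in 1 and 8.24%, and the TATA box in 0 and 11.5%. The B box, an element inside transfer RNA genes, was added after the POLR3E sequence had been seen; it occurs in that window alone among the 9, within the transfer RNA gene, and in 0.185% of all windows. A match describes the letters and not a bound site. The stretches of 30 bases around the E-boxes are given to compare their flanks, with the motif in capitals.
POLR3A (chr10:78029533-78029562, minus strand): agaggaagcggaCACGTGggacactctacg
POLR3C (chr1:145823992-145824021, plus strand): gcccgcgtcggtCACGTGagttggccaggc
POLR3E (chr16:22297396-22297425, plus strand): cccgctccccccCACGTGtccgccggagtt

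Levels of different genes were compared as CPM per kilobase of the gene length in the authors' table. In vehicle cells POLR3GL stood at 13.0 and 15.9 CPM per kb and POLR3C, a subunit of the trimer, at 13.7 and 14.8, and these overlapped. POLR3D (10.8 and 11.2), POLR3E (10.0 and 10.1) and POLR3A (8.19 and 8.98) followed in that order without overlap. POLR3K (7.71 and 7.74) and POLR3G (6.73 and 7.74) overlapped, as did POLR3F (5.45 and 6.40) and POLR3B (5.59 and 5.64) at the low end. The vehicle means of the 9 genes ran from 5.62 CPM per kb for POLR3B to 14.5 for POLR3GL.

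POLR3G, on chromosome 5 (90471748 to 90514553, hg38, plus strand), was the member with the widest range. It stood at 27.0 and 31.0 CPM in the vehicle libraries, 15.2 and 16.6 with TAK-981, 73.9 and 46.3 with venetoclax and 12.9 and 11.0 with the combination. The 4 groups did not overlap, in the order venetoclax, vehicle, TAK-981, combination. The venetoclax replicates differed by 0.67 log2 units, against 0.13 to 0.23 in the other groups. Against venetoclax the combination was lower by a log2 fold change of -2.32 (SE 0.221), with means of 11.9 and 60.1 CPM. From the lowest, this is rank 16 of 12843 genes, which is how the gene was chosen.

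TAK-981 alone lowered POLR3G by 0.87 on the log2 scale (SE 0.212, edgeR adjusted p = 0.0299), lower in 2 of 2 libraries than in either vehicle library. The groups compared share no library with that choice, but the SE and p use a spread fitted over all 8 libraries. In the 4 libraries of the 2 groups alone, POLR3G also passed, lower. The call depended on the libraries in the fit. Without vehicle replicate 1 or 2 the log2 fold change was -0.97 and -0.77 (edgeR adjusted p = 0.105 and 0.188). Without TAK-981 replicate 1 or 2 it was -0.80 and -0.93 (edgeR adjusted p = 0.203 and 0.15), and without combination replicate 1 or 2 it was -0.87 each time (edgeR adjusted p = 0.0522 and 0.0528). Against vehicle, POLR3G differed by 1.04 with venetoclax and by -1.27 with the combination, values that share libraries with the choice and carry no test.

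**Figure D1:**
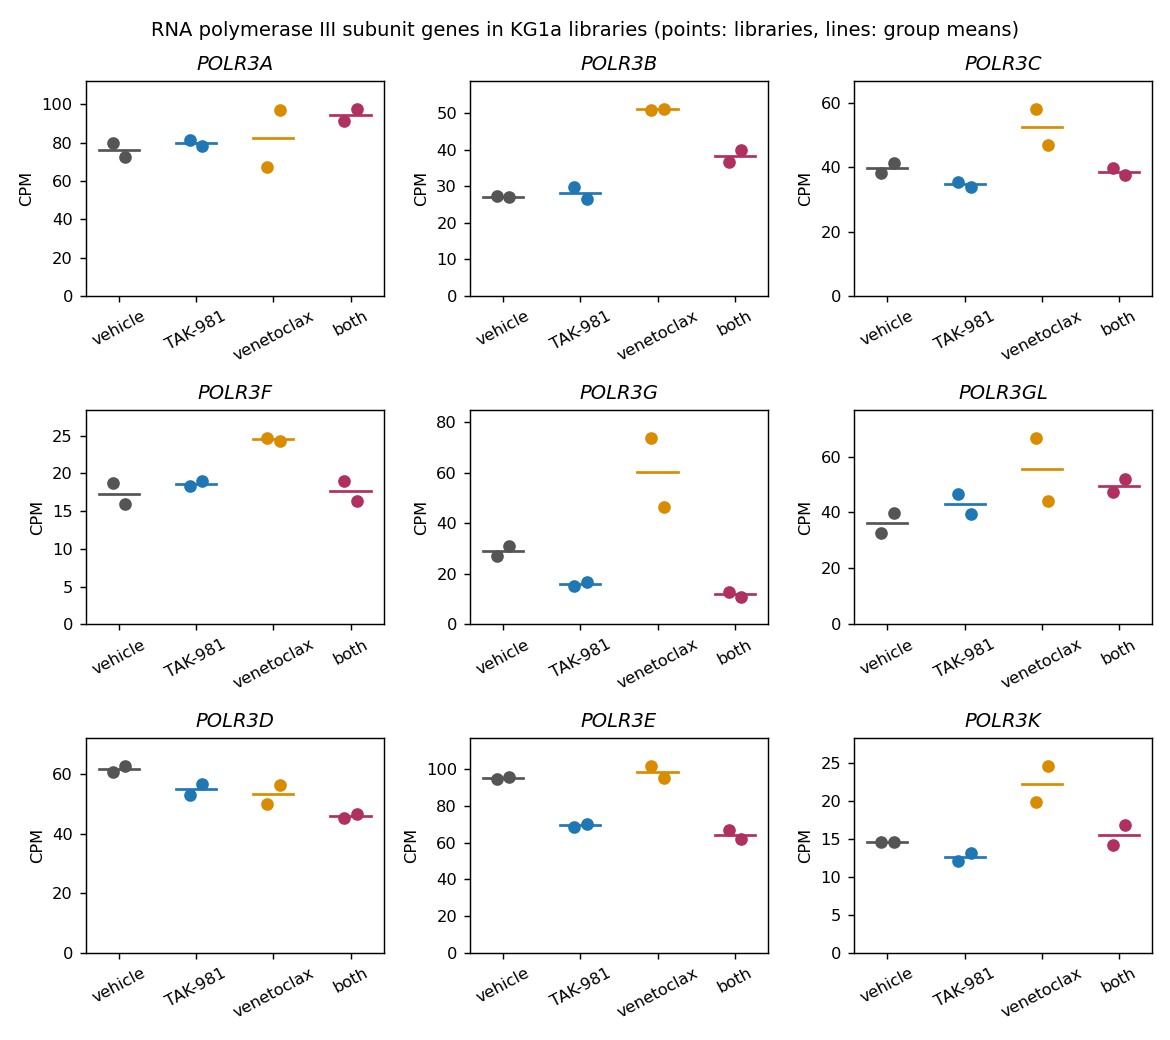
Level of each subunit gene in CPM (vertical axis, from 0) in the 8 libraries, by group; points are libraries and lines are group means. POLR3G falls from 73.9 and 46.3 CPM with venetoclax to 12.9 and 11.0 with both drugs, while POLR3GL stays between 32.5 and 66.8 CPM throughout.

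POLR3GL, on chromosome 1 (145927258 to 145978848 in the authors' table), did not follow POLR3G down. Its levels were 32.5 and 39.9 CPM with vehicle, 46.6 and 39.4 with TAK-981, 66.8 and 44.1 with venetoclax and 47.4 and 51.9 with the combination. TAK-981 and vehicle overlapped, with a log2 fold change of 0.25 (SE 0.194, edgeR adjusted p = 0.469), and venetoclax overlapped with the combination (-0.15, SE 0.194, described only). As a share of both paralogs per length, POLR3G made up 34.1% and 32.7% in the vehicle libraries and 16.9% and 20.9% with TAK-981. With venetoclax it made up 40.9% and 39.6%, and with the combination 14.5% and 11.7%. The share kept the 4 groups apart, and the venetoclax replicates, far apart in both genes' CPM, were close in the share. An exact permutation test of 2 against 2 libraries, two-sided, cannot go below p = 0.333, so no test of the share is given. The share, and the place of POLR3GL in the order per length, rest on the deposited length of 2.504 kb, which may not match the range its reads were counted over.

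**Figure D2:**
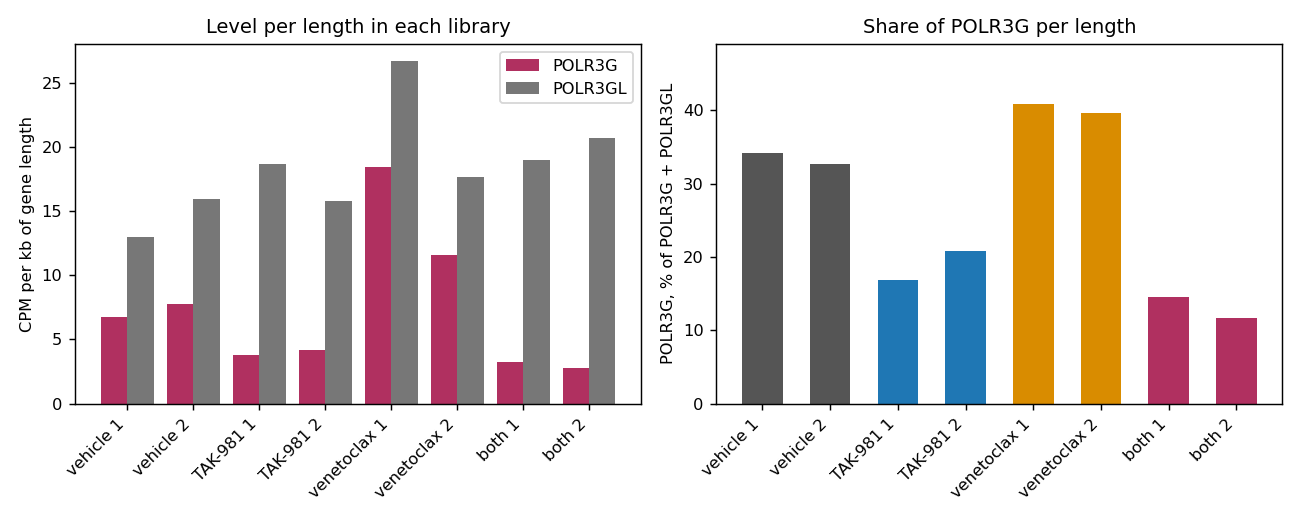
Left, CPM per kb of POLR3G and POLR3GL in each library; right, POLR3G as a percentage of both. Bars are single libraries, named by group and replicate, and both axes start at 0; the share is 32.7% and 34.1% with vehicle and 11.7% and 14.5% with both drugs.

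The range of each paralog in the table bears on its counts. The deposited POLR3GL range starts 37432 bases before the RefSeq start. It spans ANKRD34A, LIX1L and 421 bases of RBM8A on the other strand. The strand setting of the counting is not given in the sources used here. LIX1L, the largest of these overlaps at 24579 bases, stood at means of 55.5, 51.0, 57.5 and 51.4 CPM with vehicle, TAK-981, venetoclax and the combination. RBM8A had the highest level, with means of 200.8, 232.4, 309.0 and 229.9 CPM in the same order. It differed by 0.21 log2 units with TAK-981 against vehicle and by -0.42 with the combination against venetoclax. The start of POLR3G overlaps 3021 bases of MBLAC2, on the other strand. MBLAC2 differed by -0.14 log2 units with TAK-981 against vehicle and by -1.41 with the combination against venetoclax. The POLR3G range starts 2181 bases before its RefSeq start, within that overlap. Whether reads were shared was not tested.

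Of the 7 members not chosen on their values, TAK-981 alone lowered POLR3E, the dimer subunit. POLR3E stood at 94.9 and 95.7 CPM with vehicle, 68.6 and 70.4 with TAK-981, 102 and 95.4 with venetoclax and 66.7 and 61.8 with the combination, so that the libraries with TAK-981 were all below those without. Its log2 fold change with TAK-981 was -0.46 (SE 0.0928, edgeR adjusted p = 0.0143), lower in 2 of 2 libraries. With the 2 paralogs, 2 of 9 members passed, both lower, and 7 did not; of all genes 12.2% passed, 5.98% higher and 6.18% lower. The median over the 9 was -0.17, against 0.00149 over all genes. The call of POLR3E ended without any 1 library of the vehicle or TAK-981 groups: its edgeR adjusted p was 0.1 and 0.111 without vehicle replicates 1 and 2, and 0.144 and 0.126 without TAK-981 replicates 1 and 2, at log2 fold changes of -0.44 to -0.47.

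POLR3D, the partner of POLR3E in the dimer, fell in the combination. Its levels were 60.7 and 62.7 CPM with vehicle, 53.1 and 56.7 with TAK-981, 50.0 and 56.3 with venetoclax and 45.2 and 46.5 with the combination. The vehicle libraries were highest and the combination libraries lowest, without overlap. Against vehicle the combination gave -0.43 (SE 0.104, edgeR adjusted p = 0.0143), and TAK-981 alone gave -0.17 (edgeR adjusted p = 0.344). POLR3E gave -0.57 with the combination (SE 0.0934, edgeR adjusted p = 0.00252) and 0.05 with venetoclax alone (edgeR adjusted p = 0.743). The call of POLR3D in the combination ended without any 1 of the vehicle or combination libraries (edgeR adjusted p from 0.066 to 0.0993).

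POLR3B, the second largest subunit of the catalytic core, moved the other way. It stood at 27.2 and 27.0 CPM with vehicle, 30.0 and 26.5 with TAK-981, 51.0 and 51.2 with venetoclax and 36.7 and 39.8 with the combination. The venetoclax and combination libraries lay above all others. The log2 fold change was 0.91 with venetoclax (SE 0.113, edgeR adjusted p = 0.00234) and 0.50 with the combination (SE 0.113, edgeR adjusted p = 0.0112). It was also higher with the combination than with TAK-981 (0.44, SE 0.113, edgeR adjusted p = 0.0452). Of the 7, it alone passed in that comparison, in which 8.8% of all genes passed, 2.76% higher and 6.03% lower. The last call was lost without a filter on low counts (edgeR adjusted p = 0.0543) and on leaving out any 1 library of the vehicle, TAK-981 or combination groups (edgeR adjusted p from 0.0964 to 0.351). The call against vehicle in the combination was lost without vehicle replicate 1 or 2 (edgeR adjusted p = 0.0725 and 0.0845) or combination replicate 2 (edgeR adjusted p = 0.101).

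POLR3A, the largest subunit and partner of POLR3B in the core, passed in none of the 4 tested comparisons over all libraries. Its levels were 79.8 and 72.7 CPM with vehicle, 81.2 and 78.1 with TAK-981, 67.4 and 97.1 with venetoclax and 91.2 and 97.5 with the combination. The venetoclax replicates lay on either side of the vehicle libraries. Against vehicle the combination gave 0.31 (SE 0.155, edgeR adjusted p = 0.175), a difference that passed in the 4 libraries of the 2 groups alone (0.31, edgeR adjusted p = 0.00825). It also passed without venetoclax replicate 1 or 2 (edgeR adjusted p = 0.00444 and 0.00514). Against TAK-981 the combination gave 0.24 (edgeR adjusted p = 0.377), which passed without venetoclax replicate 1 or 2 (edgeR adjusted p = 0.0284 and 0.0378); POLR3D, at -0.26 (edgeR adjusted p = 0.159), did so too (edgeR adjusted p = 0.0241 and 0.0189).

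Venetoclax alone raised 3 of these 7 members, POLR3B, POLR3F and POLR3K, while 4 did not pass; of all genes 20.8% passed, 11.4% higher and 9.44% lower. The median over the 7 was 0.40, against 0 over all genes. Over the 9 it was 0.50, which includes the 2 paralogs chosen on their values. POLR3F, of the trimer, rose from 18.7 and 15.9 CPM to 24.8 and 24.3 (0.50, SE 0.14, edgeR adjusted p = 0.0339). POLR3K, the cleavage subunit, rose from 14.5 and 14.6 CPM to 19.9 and 24.6 (0.62, SE 0.158, edgeR adjusted p = 0.0247). POLR3C, of the trimer, stood at 38.0 and 41.2 CPM with vehicle and 58.0 and 46.9 with venetoclax, a difference of 0.40 that did not pass (SE 0.126, edgeR adjusted p = 0.0508); it passed with no filter on low counts (edgeR adjusted p = 0.0399).

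The venetoclax calls of POLR3F and POLR3K depended on the libraries in the fit. In the 4 libraries of the 2 groups alone, POLR3F gave 0.48 (edgeR adjusted p = 0.149) and POLR3K 0.59 (edgeR adjusted p = 0.112), and POLR3B alone passed. Both calls were also lost without vehicle replicate 1 (edgeR adjusted p = 0.102 and 0.147), vehicle replicate 2 (0.207 and 0.127, from edgeR) and TAK-981 replicate 1 (0.0736 and 0.0541, from edgeR) or 2 (0.0824 and 0.0569, from edgeR). That of POLR3F was lost without combination replicate 1 or 2 as well (edgeR adjusted p = 0.0544 and 0.0538). Without venetoclax replicate 2, POLR3C (0.55, edgeR adjusted p = 0.00072) and POLR3D (-0.30, edgeR adjusted p = 0.026) passed as well, 5 of 7 in all; without venetoclax replicate 1, POLR3A passed (0.35, edgeR adjusted p = 0.00839).

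With the combination, POLR3F, POLR3K and POLR3C were near their vehicle levels. POLR3F stood at 19.0 and 16.3 CPM, POLR3K at 14.2 and 16.9 and POLR3C at 39.6 and 37.6, each overlapping the vehicle libraries. Of the 7 members, POLR3B was higher than vehicle, POLR3D and POLR3E were lower, and 4 did not pass; of all genes 27.9% passed, 12.8% higher and 15.1% lower. The median over the 7 was 0.03, as it was over the 9, against 0.01 over all genes.

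Against venetoclax alone, 8 of the 9 members were lower with the combination and POLR3A was higher (0.19). Without venetoclax replicate 1 the direction turned for POLR3A (-0.05) and for POLR3GL (from -0.15 to 0.16). The values were -0.62 for POLR3E, -0.53 for POLR3K, -0.47 for POLR3F, -0.44 for POLR3C, -0.42 for POLR3B and -0.22 for POLR3D, beside -2.32 for POLR3G. The median was -0.44, against -0.02 over all genes, of which 39.6% passed in this comparison, 17.6% higher and 22% lower. Since this comparison chose POLR3G, nothing is read from these counts. The comparisons share libraries, so the venetoclax group enters both its rise over vehicle and the fall from it to the combination.

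**Figure D3:**
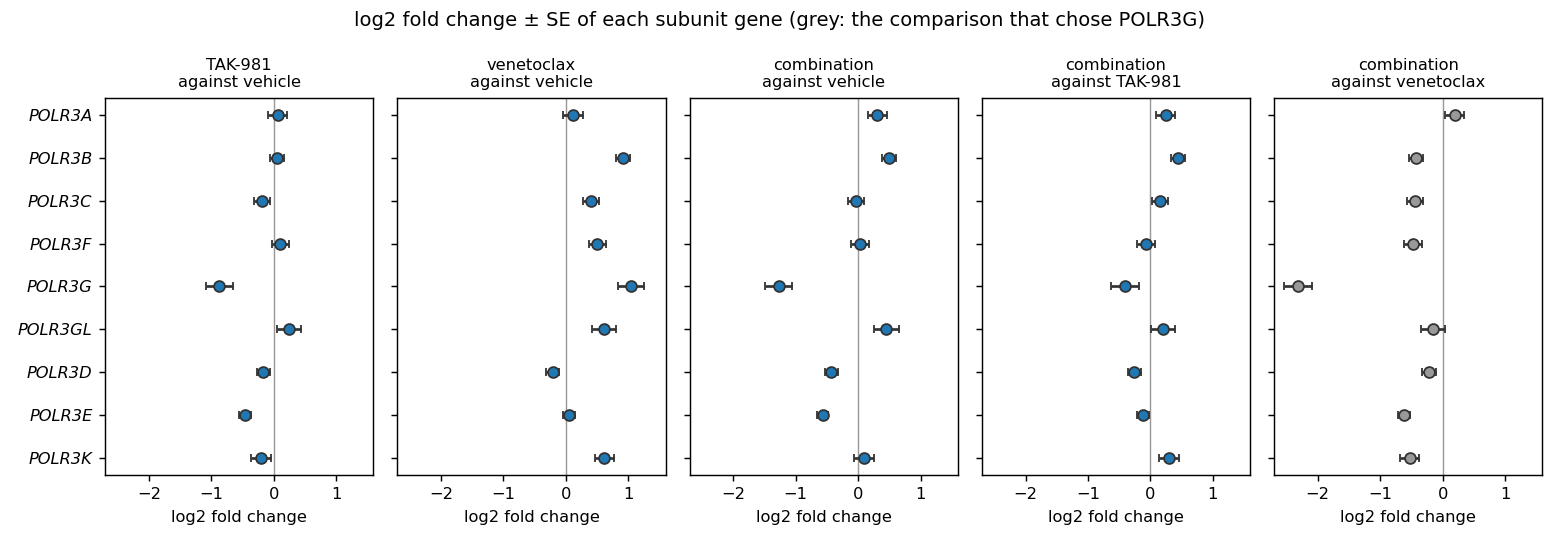
log2 fold change (horizontal axis) with its SE (bars) of the 9 subunit genes in 5 comparisons. Grey points mark the comparison that chose POLR3G and carry no test. The blue points of POLR3G and POLR3GL carry a test only for TAK-981 against vehicle. With TAK-981 against vehicle POLR3G (-0.87) and POLR3E (-0.46) lie furthest left, and with venetoclax POLR3B (0.91) and POLR3G (1.04) lie furthest right.

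The effect of TAK-981 in venetoclax-treated cells less its effect without venetoclax was -1.45 for POLR3G (SE 0.302), -0.58 for POLR3F (SE 0.2) and -0.48 for POLR3B (SE 0.159). Of the 9 members 8 were below 0, with a median of -0.32, against -0.01 over all genes. All members share the same libraries, so their directions are not separate observations. This difference contains the comparison that chose POLR3G and is given without a test; of all genes 0.0311% passed in it, all of them higher (0.0311%).

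Over the 8 libraries, the log2 CPM of POLR3G followed that of POLR3E (Pearson r = 0.931) and POLR3C (r = 0.862) most closely among the members, that of POLR3GL with r = 0.254 and that of POLR3A with r = -0.515. These correlations are across 8 libraries in 4 groups of 2, which share their treatments and depth, and are a description. Among 9449 genes of at least 5 CPM on average, 705 had r above 0.9. The 5 nearest were TEX9 (r = 0.997), FBXW8 (0.996), CCDC138 (0.994), SASS6 (0.994), which builds centrioles, and NUDT21 (0.993), a factor of mRNA 3' end processing. Their amplitudes differed: TEX9 stood at means of 5.23, 3.52, 8.67 and 2.92 CPM with vehicle, TAK-981, venetoclax and the combination, and FBXW8 at 29.1, 26.1, 32.1 and 25.0.

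CRCP, a subunit outside the 9 genes, stood at 48.9 and 49.3 CPM with vehicle and at 58.6 and 63.2 with venetoclax. It passed in none of the 4 tested comparisons over all libraries, with 0.31 in venetoclax (SE 0.101, edgeR adjusted p = 0.0571).

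The 7 subunits shared with other polymerases included POLR2F, with at most 1 count per library, which was not tested. Of the 6 tested, POLR2H fell with TAK-981 (-0.36, edgeR adjusted p = 0.0499), a call lost in 11 of 16 alternatives, and with the combination (-0.63, edgeR adjusted p = 0.00261). POLR2K and POLR2L rose with venetoclax (0.61 and 0.69, edgeR adjusted p = 0.0171 and 0.0332), and POLR2L also with the combination (0.88, edgeR adjusted p = 0.00935). These calls of POLR2K and POLR2L were lost without vehicle replicate 1 or 2. Those with venetoclax were also lost in the 4 libraries alone (edgeR adjusted p = 0.0887 for POLR2K and 0.118 for POLR2L). That of POLR2L with venetoclax was lost in 8 of 15 alternatives in all, and that with the combination also without combination replicate 1. POLR1C and POLR1D, shared with RNA polymerase I, passed in none of the 4 tested comparisons.

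The factors that bring the enzyme to its genes were taken list by list. TFIIIB, of BRF1 or BRF2 with BDP1 and TBP, had 0 of 4 genes called by edgeR in each of the 4 tested comparisons. Of all genes 12.2% passed with TAK-981, 20.8% with venetoclax, 27.9% with the combination against vehicle and 8.8% against TAK-981. At an unadjusted p under 0.05 TFIIIB had 1 gene with TAK-981, 2 with venetoclax, 2 with the combination against vehicle and 0 against TAK-981. DESeq2 called 1 with venetoclax and 0 otherwise, and limma-voom called 0. TBP gave -0.45 with TAK-981 (SE 0.135, edgeR adjusted p = 0.0614). In TFIIIC with TFIIIA, which bind inside the genes, venetoclax raised GTF3C6 (0.93, edgeR adjusted p = 0.00277) and GTF3A (0.44, edgeR adjusted p = 0.018) of 7 genes, beside 11.4% of all genes higher, with a list median of 0.16. GTF3C6 was also higher with the combination (0.77, edgeR adjusted p = 0.00211), at 115 and 115 CPM against 59.6 and 74.4 with vehicle. The GTF3A call was lost without either vehicle library, without TAK-981 replicate 2 and in the 4 libraries alone (edgeR adjusted p up to 0.15). GTF3C5 was higher with the combination than with TAK-981 (0.44, edgeR adjusted p = 0.0427), a call lost without any 1 vehicle, TAK-981 or combination library (edgeR adjusted p up to 0.285).

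SNAPc serves genes with promoters upstream, such as U6 and 7SK. With the combination SNAPC1 (-0.88, edgeR adjusted p = 0.0124), SNAPC3 (-0.70, edgeR adjusted p = 0.00418) and its partner POU2F1 (-0.60, edgeR adjusted p = 0.0167) fell of 7 genes, beside 15.1% of all genes lower, and with venetoclax SNAPC5 rose (0.52, edgeR adjusted p = 0.0202). The SNAPC1 call was lost without vehicle replicate 2 or either combination library (edgeR adjusted p up to 0.0942), and that of POU2F1 without vehicle replicate 1 or combination replicate 2 (edgeR adjusted p = 0.135 and 0.136). That of SNAPC5 was lost in 5 of 15 alternatives: without any 1 vehicle or TAK-981 library and in the 4 libraries alone (edgeR adjusted p up to 0.133). Among regulators, MYC, which raises RNA polymerase III output and binds E-boxes, fell with TAK-981 from 290 and 305 CPM to 178 and 198 (-0.66, SE 0.147, edgeR adjusted p = 0.0201). It stood at 299.5 and 397 CPM with venetoclax and at 209 and 247 with the combination (-0.39 against vehicle, edgeR adjusted p = 0.0792, 0.00792 with no filter on low counts, and 0.00157 and 0.00142 without venetoclax replicate 1 or 2). With venetoclax MYC passed only without venetoclax replicate 1 (edgeR adjusted p = 0.00629). The MYC call was lost without any 1 vehicle or TAK-981 library (edgeR adjusted p up to 0.18). MAF1, the repressor of the enzyme, stood between 39.4 and 59.2 CPM in the 8 libraries and gave 0.23 with TAK-981 (edgeR adjusted p = 0.373, and 0.0475 and 0.0408 without venetoclax replicate 1 or 2). CSNK2A1, the catalytic subunit of casein kinase 2, rose with venetoclax (0.38, edgeR adjusted p = 0.0207), a call lost without any 1 vehicle or TAK-981 library and in the 4 libraries alone (edgeR adjusted p up to 0.165). RB1, which also restrains the polymerase, fell with the combination (-0.67, edgeR adjusted p = 0.00237).

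Proteins that bind the enzyme's transcripts included HEXIM1, which acts with 7SK RNA and rose from 33.3 and 33.3 CPM to 57.9 and 59.9 with TAK-981 (0.82, SE 0.105, edgeR adjusted p = 0.00177). It was at 60.5 and 68.5 CPM with the combination (0.95, edgeR adjusted p = 0.00041). MEPCE, which caps 7SK, rose with the combination (1.14, edgeR adjusted p = 0.00509), except without vehicle replicate 2 (edgeR adjusted p = 0.0589). SSB, the La protein that binds the 3' ends of new transcripts, rose with venetoclax from 223 and 238 CPM to 629 and 403 (1.16, edgeR adjusted p = 0.00493), a call lost without vehicle replicate 1 and in the 4 libraries alone (edgeR adjusted p up to 0.065). SRP9, of the signal recognition particle, and TROVE2, the Ro protein, fell with the combination (-0.86 and -0.54, edgeR adjusted p = 0.00143 and 0.00279). This list thus held 2 higher and 2 lower of 7 with the combination, beside 12.8% and 15.1% of all genes. With venetoclax LARP7, which binds 7SK, and SRP14, of the signal recognition particle, rose too (0.84 and 1.16, edgeR adjusted p = 0.0223 and 0.026), so that 3 of 7 were higher, beside 11.4% of all genes. Both calls were lost without vehicle replicate 1 or 2, and that of SRP14 also without TAK-981 replicate 2. In the 4 libraries alone both were lost as well (edgeR adjusted p = 0.0959 for LARP7 and 0.109 for SRP14). Without venetoclax replicate 1 the value of SRP14 was the lowest, 0.46, with 405 and 178 CPM in its venetoclax replicates.

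The other nuclear polymerases were compared. Of 6 specific subunits of RNA polymerase I, venetoclax raised 3, with CD3EAP at 1.51 (edgeR adjusted p = 0.00145), TWISTNB at 0.67 and POLR1A at 0.42, and TAK-981 lowered POLR1E (-0.66, edgeR adjusted p = 0.0111). The POLR1E call was lost without any 1 vehicle or TAK-981 library (edgeR adjusted p up to 0.112). The median with venetoclax was 0.36. Of 7 specific subunits of RNA polymerase II, venetoclax raised POLR2A (0.94), POLR2I (0.68) and POLR2J (0.65), with a median of 0.28. Of these 6 calls with venetoclax, that of CD3EAP was kept in all 15 alternatives, and the 5 others were lost without vehicle replicate 1 and in the 4 libraries alone (edgeR adjusted p up to 0.145). POLR1A and POLR2J lost theirs in 5 of 15 alternatives and POLR2A in 7, with an edgeR adjusted p of up to 0.188 without vehicle replicate 2. POLR2A stood at 493 and 236 CPM in the venetoclax replicates, and its 0.94 ran from 0.32 to 1.38 on leaving out 1 library, each end without 1 of those. These shares, 3 of 6 and 3 of 7, stand beside the 3 of 7 of the RNA polymerase III members not chosen on their values and 11.4% of all genes higher. For the combination against TAK-981 the medians of RNA polymerase I and II were 0.19 and 0.17, beside 0.15 for those 7 members. For the combination against venetoclax they were -0.62 and -0.21, beside -0.44, which is a description. No difference between the polymerases was tested.

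**Figure D4:**
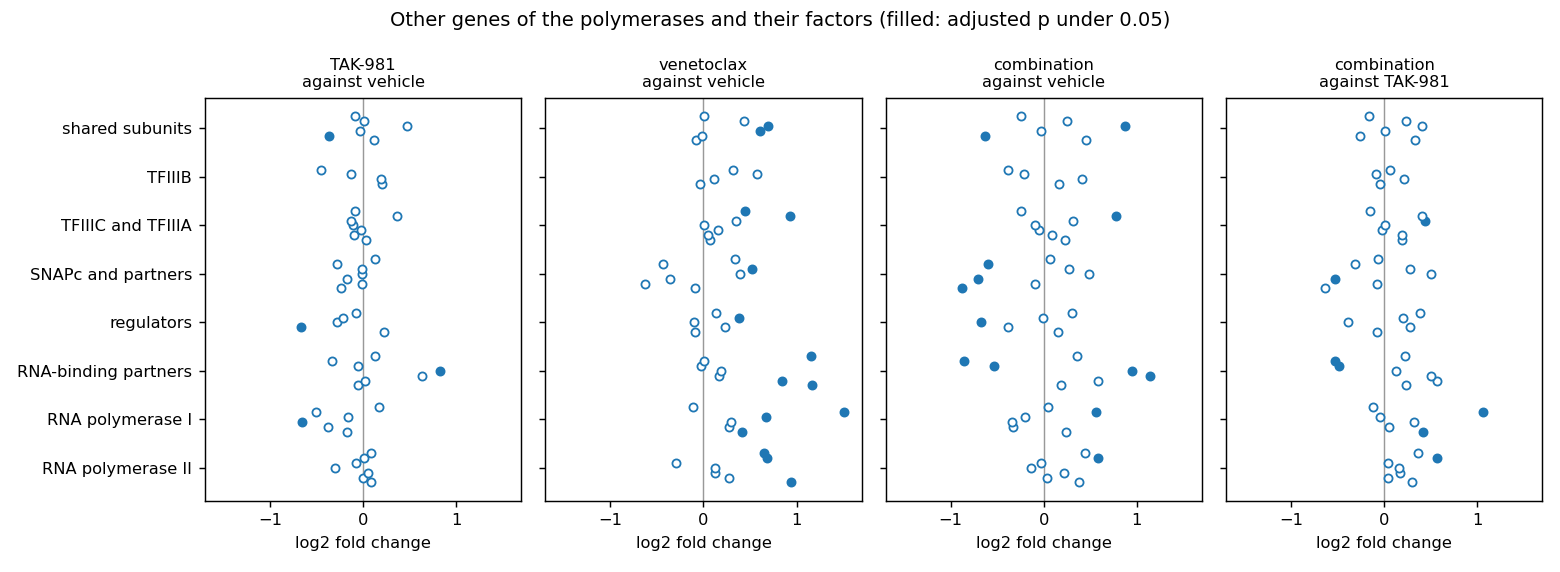
log2 fold change (horizontal axis) of the tested genes of 8 lists (rows) in 4 comparisons; each point is a gene, filled where the edgeR adjusted p was under 0.05. CD3EAP, at 1.51 with venetoclax in the RNA polymerase I row, is the point furthest from 0 in these panels.

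Of the transcripts that RNA polymerase III makes, 7SK and 7SL RNA had their highest values in the combination. RN7SK (7SK RNA) stood at 2.91 and 3.29 CPM with vehicle, 8.81 and 5.72 with TAK-981, 10.4 and 9.12 with venetoclax and 56.7 and 91.4 with the combination. RN7SL1 (7SL RNA) stood at 2.43 and 2.77, 7.05 and 7.43, 5.86 and 11.6, and 41.2 and 94.1 CPM in the same order of groups. The combination libraries lay above all others for both. Against vehicle the combination gave 4.57 for RN7SK (SE 0.291, edgeR adjusted p = 3.52e-05), 4.69 for RN7SL1 (SE 0.446, edgeR adjusted p = 0.000209) and 3.40 for RN7SL2 (edgeR adjusted p = 0.000735). RNU6ATAC had 2 and 3 counts with vehicle, 3 and 1 with TAK-981, 6 and 19 with venetoclax and 37 and 31 with the combination, so it passed the filter through the groups where it is high, and no fold change is given.

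Of 20 such RNAs listed, 17 were in the table and 10 passed the filter on low counts. The 10 were all higher with the combination, but a gene could pass the filter through the combination libraries alone, so this count supports nothing. The 7 others, vault and Y RNAs, had at most 3 counts per library. These RNAs lack poly(A) tails, and the sources differ on the library method (ribosomal RNA depletion in the design text, a SMART-Seq kit in the protocols), so how they were captured is not known. RN7SL1 and RN7SL2 are near-identical, so their reads could be shared. In vehicle libraries BCYRN1 had means of 5.31 CPM and 0.394 CPM per kb, so its deposited length is many kilobases. RNU6-9 had 1.78 CPM and 2.40 CPM per kb against 0.365 and 1.72 for RNU6-7, so its deposited length is longer. Whether the reads of BCYRN1 and RNU6-9 came from short RNAs was not tested. With venetoclax 5 of the 10 were called higher (11.4% of all genes), a count from the same filtered set that supports nothing either. Among these RN7SK gave 1.65 (edgeR adjusted p = 0.00738), RN7SL1 1.79 (edgeR adjusted p = 0.0236), RNU6-9 1.33 (edgeR adjusted p = 0.0216) and BCYRN1, a neuronal RNA of this class, 1.25 (edgeR adjusted p = 0.024); the other was RNU6ATAC. These calls of RN7SK, RN7SL1, RNU6-9 and BCYRN1 were each lost without vehicle replicate 1 or 2 (edgeR adjusted p from 0.0539 to 0.186), and those of RN7SL1 and BCYRN1 also without venetoclax replicate 2 (edgeR adjusted p = 0.362 and 0.0623). That of RN7SL1 was lost without venetoclax replicate 1 too and with limma-voom (limma-voom adjusted p = 0.083), in 6 of 15 alternatives in all. In the 4 libraries alone the calls of RN7SL1, RNU6-9 and BCYRN1 were lost (edgeR adjusted p = 0.0621, 0.0651 and 0.103). With TAK-981 alone 2 of the 10 were higher (5.98% of all genes), again from that filtered set. BCYRN1 rose from 4.26 and 6.36 CPM to 19.3 and 24.8 (2.05, SE 0.312, edgeR adjusted p = 0.00407), a call lost without vehicle replicate 1 (edgeR adjusted p = 0.0602). RN7SK rose as well (1.24, SE 0.296, edgeR adjusted p = 0.0276), a call lost in 7 of 16 alternatives: with limma-voom, without either vehicle library, without TAK-981 replicate 1, and without either or both venetoclax libraries.

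**Figure D5:**
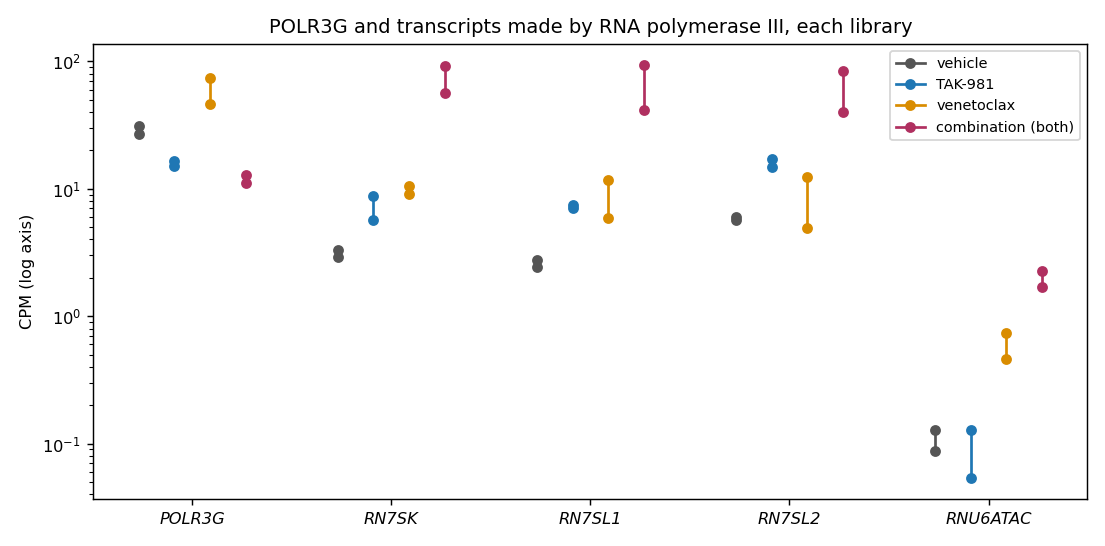
CPM (vertical axis, logarithmic) of POLR3G and of 4 transcripts made by RNA polymerase III in each library; points are libraries, joined within a group. The combination has the lowest POLR3G (11.0 and 12.9 CPM) and the highest RN7SK (56.7 and 91.4 CPM).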

How the data were processed

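The authors deposited raw counts of reads per gene for 8 libraries in 1 table, with hg38 coordinates and gene lengths in kilobases, per the file headers. The submitters' processing notes list Trimmomatic, STAR 2.6.0, HTSeq 0.11.1 and edgeR, with no order given; annotation, strand setting and treatment of multiply matching reads: not given in the sources used here. RefSeq lists pseudogenes of POLR3D, POLR3G and POLR3K, so reads could be shared with them.

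The main test was the quasi-likelihood F test of edgeR 4.0.16 (with R 4.3.3 and limma 3.58.1). It used TMM scaling, filterByExpr (12843 of 25168 genes), robust dispersion and all 8 libraries in 1 model, two-sided, with Benjamini-Hochberg adjustment over all tested genes and a threshold of 0.05. The SE of a log2 value is approximate: its size was divided by the root of its F statistic. CPM use TMM-scaled totals, and log2 CPM a prior count of 2. The procedure was also run on simulated data with the same spread in every group. That setting lacks the wider venetoclax replicates, so it cannot tell how the procedure handles them. As alternatives, libraries were scaled by DESeq2's size factors, the filter was dropped or set to a mean of 1 CPM, a replicate block was added, DESeq2 1.42.0 and limma-voom were run, each library was left out, the 4 libraries of a comparison were fitted alone, and both venetoclax libraries were dropped.

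The members, lists and tests were chosen with earlier results of these data known. All 9 members are named. From each list up to 4 genes that passed are named by smallest p, lists of at most 7 genes may be named whole, and MYC and MAF1 are always named. So are the 5 genes of at least 5 CPM most correlated with POLR3G, noncoding and unnamed models left out. LIX1L, RBM8A, ANKRD34A and MBLAC2 were added for their overlap. One listed gene is not reported here.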

Additional observations from a re-analysis of the deposited data

Results flagged for a closer look

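For 4 members an effect had opposite directions in the presence and absence of the other drug, in every library against the mean of its reference group; none of these differences was tested, since they contain the comparison that chose POLR3G. With TAK-981, POLR3F was above its reference without venetoclax and below it with venetoclax, a difference of -0.58 log2 units, and POLR3GL likewise, by -0.40. For POLR3F the TAK-981 and vehicle libraries overlapped (0.11, edgeR adjusted p = 0.696). For POLR3GL the libraries overlapped both with and without venetoclax, and the direction with venetoclax turned without venetoclax replicate 1. With venetoclax, POLR3G was above its reference without TAK-981 and below it with TAK-981, a difference of -1.45, and POLR3E likewise, by -0.16. POLR3E in venetoclax replicate 2 stood at 95.4 CPM against a vehicle mean of 95.3.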

How the results depend on the processing

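Counts of members called refer to 9 for TAK-981 against vehicle and to the 7 not chosen on their values elsewhere. With 1 library left out they ran from 0 to 2 for TAK-981 against vehicle (2 with all 8), 1 to 5 for venetoclax (3), 1 to 4 for the combination against vehicle (3) and 0 to 3 for the combination against TAK-981 (1); a lone library was then assumed to vary like the other groups. In the 4 libraries alone the count was 1 for venetoclax against vehicle and 3 for the combination against TAK-981, and 3 for the latter without both venetoclax libraries. The last count was 0 with no filter on low counts. The median over the 9 for the difference in the TAK-981 effect, -0.32, ran from -0.45 to -0.14 with 1 library left out, and that for the combination against venetoclax, -0.44, from -0.44 to -0.40. Of the member fold changes under alternatives, 737 kept their side of the threshold or moved by less than the replicate spread. A call was lost in 37 and gained in 17, and 37 moved further. The sign changed in 0 called values but in several uncalled ones, among them POLR3A and POLR3GL against venetoclax. With venetoclax against vehicle POLR3A ran from 0.11 to -0.18. Values near 0 also crossed it for POLR3A, POLR3B and POLR3F with TAK-981, and for POLR3C, POLR3F and POLR3K with the combination against vehicle.

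The replicate block ended the POLR3B call for the combination against TAK-981 (edgeR adjusted p = 0.0514, 0 members called) and added POLR3C for venetoclax (edgeR adjusted p = 0.0499) and MYC for the combination against vehicle (edgeR adjusted p = 0.0219). Same-numbered libraries share only a number: the correlation of their deviations ran from -0.0464 to 0.381 between groups. Counts over all genes ran from 336 to 4096 for TAK-981 against vehicle (1562), 200 to 5360 for venetoclax (2676), 1431 to 6152 for the combination against vehicle (3582), 65 to 3746 against TAK-981 (1130), 2386 to 7204 against venetoclax (5086) and 0 to 4440 for the interaction (4), so percentages of genes called depend on the libraries in the fit. The causes were not tested. POLR3G had 151 counts in the shallowest library, the fewest of any member.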
